A study of Mus musculus with 3 samples.

Results

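Cytokines, receptors and a target of the interleukin-1 (IL-1) and tumour necrosis factor (TNF) pathways, 10 genes in all, were looked up by name in the deposited expression table: Il1a, Il1b, Il1rn, Il33, Il1r1, Il1rl1, Tnf, Tnfrsf1a, Tnfrsf1b and Saa3. All 10 were among its 56833 genes, and each had reads in every library. RNA came from mouse ankle synovium cells of genotype Efhd1CreER; Ai9, in which a Cre recombinase driven by Efhd1 switches on the tdTomato reporter of Ai9. The tdTomato-positive cells, called telocytes by the labels, were sorted and kept for 24 h on CytoSoft plates coated with collagen, with a stiffness of 0.2 kPa for the soft plate, 8 kPa for the intermediate and 64 kPa for the stiff one. By its title, the study is about matrix stiffness and the turning of these cells into fibroblasts. With 1 library a level, differences have no replicate check, no p-value is given, and culture-to-culture differences cannot be told apart from stiffness. The number, age and sex of the mice and the agent used to induce Cre are not given in the sources used here.

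IL-1 alpha and IL-1 beta are early inflammatory cytokines that signal through the receptor encoded by Il1r1 and its co-receptor encoded by Il1rap, while the product of Il1rn occupies the same receptor without signalling. IL-33 is a nuclear alarmin of the same family, read by the receptor ST2, which Il1rl1 encodes in a membrane form and in a shorter soluble form that acts as a decoy. TNF acts through a pair of receptors, the widely expressed TNFR1 (Tnfrsf1a) and the more restricted TNFR2 (Tnfrsf1b), and both cytokine families converge on NF-kappaB. In the synovium they are known for driving the fibroblast response of inflammatory arthritis, and Saa3, an acute-phase serum amyloid, is a common readout of that response in mouse fibroblasts.

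Values are normalized counts, that is, reads divided by a size factor of each library, so that 1 read was worth 0.943 to 1.03 normalized counts. The soft, intermediate and stiff libraries held 25487064, 28081600 and 26474862 reads. A log2 ratio is taken after adding 1 to each value, and its interval is an exact 95% interval of the read ratio that covers counting error only. A gene was called different when its log2 ratio reached 1 in size and its mean over the 3 libraries was at least 50. Of the 10 genes 9 met that mean, and Il33, at 46.3, did not.

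The labelled cell type was checked against its markers. Efhd1 itself stood at 10.3, 4.71 and 3.08 normalized counts from soft to stiff, levels that rest on few reads. Pdgfra ranged from 5118 to 6298 and Cd34 from 235 to 318. Col1a1, from the fibroblast list, ranged from 78648 to 151834. RNA of macrophages was present as well: all 19 macrophage markers had reads, and their summed level was 37772, 47985 and 82592. Of the other lists, sums from soft to stiff were 220, 210 and 204 for neutrophils (mostly S100a8, then Mpo and Csf3r), 1180, 805 and 793 for mast cells and basophils (mostly Mcpt8, then Kit and Hdc), and 367, 574 and 652 for lymphoid cells (mostly Il7r, then Gata3 and Trac). They were 57.4, 79.2 and 88.2 for endothelial cells (Kdr, Tek, Vwf) and 2285, 3168 and 2985 for mural cells (mostly Cspg4, then Notch3 and Rgs5). For fibroblasts (Col1a1, Col1a2, Col3a1) they were 243037, 288477 and 343668, and for telocytes (mostly Vim, then Pdgfrb and Pdgfra) 108189, 118192 and 125345. By counting intervals, 5 of the 8 fibroblast markers were higher on the stiff than on the soft plate and 3 lower, against 31.3% and 25.9% of all genes. Without Cspg4 the mural sum was 643, 672 and 609. Without Vim the telocyte sum was 14183, 15182 and 13410, lowest on the stiff plate. Defining markers of mast cells (Fcer1a, Ms4a2, Cpa3, Tpsb2), neutrophils (S100a9, Ly6g, Cxcr2, Retnlg) and lymphocytes (Cd3d, Cd3e, Cd3g, Cd79a) had no read in any library, which allows up to 3 reads each. In bulk RNA, fewer cells of a type and less RNA per cell cannot be told apart.

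The largest differences between plates were in Il1a, Il1b, Il1rl1 and Tnf, so the stretches before their starts are shown, outside annotated exons of coding genes. Il1a is left out, since 206 of the 250 bases of its window lie in its own annotated exons. They are RefSeq windows of GRCm38.p6, each found once by exact match in GRCm39, whose coordinates are given. Capitals mark matches to the motifs named after the sequences. Il1rl1 has 2 starts in the table, a distal and a proximal one, and the deposited counts per gene do not separate them.
Il1rl1 distal start, chr1:40468480-40468729, plus strand: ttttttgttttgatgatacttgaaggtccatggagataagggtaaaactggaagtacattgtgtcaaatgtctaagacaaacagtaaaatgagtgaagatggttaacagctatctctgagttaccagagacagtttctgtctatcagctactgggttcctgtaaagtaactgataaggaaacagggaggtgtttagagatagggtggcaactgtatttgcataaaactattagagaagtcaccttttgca
Il1rl1 proximal start, chr1:40478539-40478786, plus strand: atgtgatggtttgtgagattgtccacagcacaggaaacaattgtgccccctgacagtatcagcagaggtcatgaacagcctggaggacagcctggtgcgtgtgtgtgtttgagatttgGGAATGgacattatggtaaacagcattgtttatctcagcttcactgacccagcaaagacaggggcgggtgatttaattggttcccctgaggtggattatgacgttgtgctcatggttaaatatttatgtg
Il1b, chr2:129213060-129213309, minus strand: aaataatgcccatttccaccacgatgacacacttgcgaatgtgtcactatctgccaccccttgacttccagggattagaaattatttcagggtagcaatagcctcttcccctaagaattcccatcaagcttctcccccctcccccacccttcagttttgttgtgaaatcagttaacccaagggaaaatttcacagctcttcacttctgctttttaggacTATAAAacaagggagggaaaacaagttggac
Tnf, chr17:35420984-35421233, minus strand: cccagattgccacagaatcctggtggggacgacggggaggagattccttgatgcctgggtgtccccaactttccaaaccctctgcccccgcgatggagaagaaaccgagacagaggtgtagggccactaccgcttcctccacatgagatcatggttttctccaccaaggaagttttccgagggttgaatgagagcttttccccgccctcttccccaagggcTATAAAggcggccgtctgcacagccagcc

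A TATA box, searched as TATAAA on the gene's strand, lay 31 bases before the Il1b start and 29 bases before the Tnf start. Of 32851 windows of 250 bases before RefSeq starts, 7.59% held one. The proximal Il1rl1 window held GGAATG, the core that TEAD factors bind, 132 bases before the start, and the 2 bases next to the start lie in an annotated exon and are not printed. Of all windows, 12.6% held it on either strand. The distal Il1rl1 window held none of the motifs searched. The kappaB motif (7.25% of all windows), TGANTCA of AP-1 (6.75%) and the CArG box (1.47%), searched on both strands, had no match in these 4 windows. Each was searched as 1 fixed pattern, of 10 bases for kappaB. Sites further upstream than 250 bases, or with other letters, were not searched. A match describes letters only, and no binding was measured.

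The receptors and the antagonist stood far above the cytokines. Per kilobase of canonical transcript, Il1rl1 was the most abundant of the 10 genes, with a mean of 8393 normalized counts per kb, followed by Tnfrsf1a (3924), Il1rn (2667), Il1r1 (965), Tnfrsf1b (692) and Saa3 (606). The cytokines followed with Il1b at 105, Tnf at 47.4, Il1a at 38.8 and Il33 at 13.7. The order of these means was the same when the merged length of all annotated exons was used. By that length, however, Tnf stood above Il1b on the stiff plate, at 68.2 against 43.0 per kb. By canonical length, counting intervals of neighbours in this order were apart in all 3 libraries for 6 of the 9 neighbouring pairs. They overlapped for Tnfrsf1b and Saa3 on the soft plate, for Il1b and Tnf on the stiff plate, and for Tnf and Il1a on the soft and the intermediate plate, where Il1a had the higher value on the latter (53.5 against 40.8 per kb). By normalized counts, Il1rl1 ranked 38 of 23558 genes with a read.

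**Figure D1:**
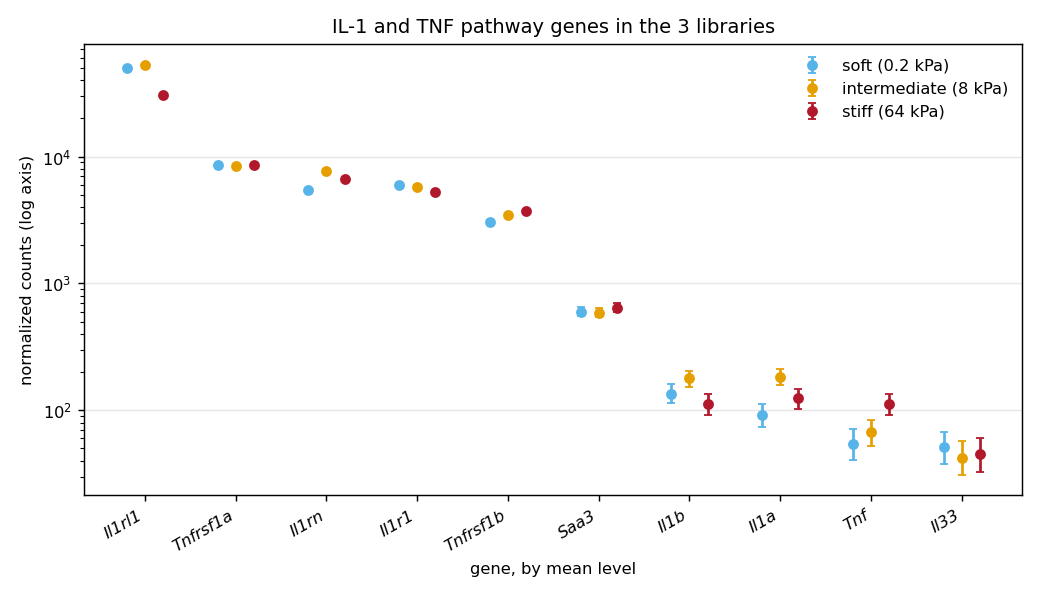
Normalized counts (log axis) of the 10 genes in the soft, intermediate and stiff library, ordered by mean level; points are single libraries and bars are exact 95% Poisson intervals of the reads. Il1rl1 stood at 50181, 52730 and 30591, and Il33 at 51.3, 42.4 and 45.1.

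Il1rl1, the receptor of IL-33, was lower in the stiff library than in both others. It had 50181 normalized counts on the soft plate, 52730 on the intermediate and 30591 on the stiff one. The soft and intermediate levels lay close together and the stiff one stood apart below them. Its stiff to soft log2 ratio was -0.71 (interval -0.73 to -0.69), a level of 61.0% of the soft one, and stiff to intermediate was -0.79 (-0.81 to -0.77). Both fell short of the log2 ratio of 1 used for calls. Intermediate to soft was 0.07 (0.05 to 0.09), and 0.04 to 0.05 under 3 of 4 other scalings. The gene lies on chromosome 1 at 40468730 to 40504575 (GRCm39, plus strand), with 11 exons in its canonical transcript. The membrane and the soluble form were not told apart. Mast cells and basophils can carry ST2, and 6 of their 10 markers had reads, with a summed level of 1180, 805 and 793 from soft to stiff. Most of it was Mcpt8, a basophil protease gene, which had 1134, 760 and 742 normalized counts and a stiff to soft log2 ratio of -0.61 (-0.75 to -0.47). Without Mcpt8 the sum was 46.1, 45.2 and 50.2, mainly Kit, and Fcer1a, Ms4a2, Cpa3 and Tpsb2 had no read in any library. The part of these cells in the level of Il1rl1 was not tested.

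Il1rl1 lies in a run of 6 receptor genes of the IL-1 family on the plus strand of chromosome 1, in the order Il1r2, Il1r1, Il1rl2, Il1rl1, Il18r1 and Il18rap. Il1r1, the signalling receptor of IL-1, had 5983, 5771 and 5299 normalized counts from soft to stiff. It was highest on the soft and lowest on the stiff plate, with a stiff to soft log2 ratio of -0.18 (-0.23 to -0.12). Il1rl2, the IL-36 receptor, had 1281, 1398 and 1022 normalized counts, and a ratio of -0.33 (-0.45 to -0.20). Il18rap, the accessory chain of the IL-18 receptor, had 567, 493 and 282. It fell on the stiff plate, with a ratio of -1.005 (-1.22 to -0.80) that just reached the call and lost it, at -0.95, once a trend of the ratios with transcript length and GC content was subtracted. Il18r1, the ligand-binding chain of that receptor, had 0, 1 and 1 read. Those reads are within the 3 that a count of 0 allows. Il1r2, the decoy receptor of IL-1, had 14, 14 and 13 reads.

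**Figure D2:**
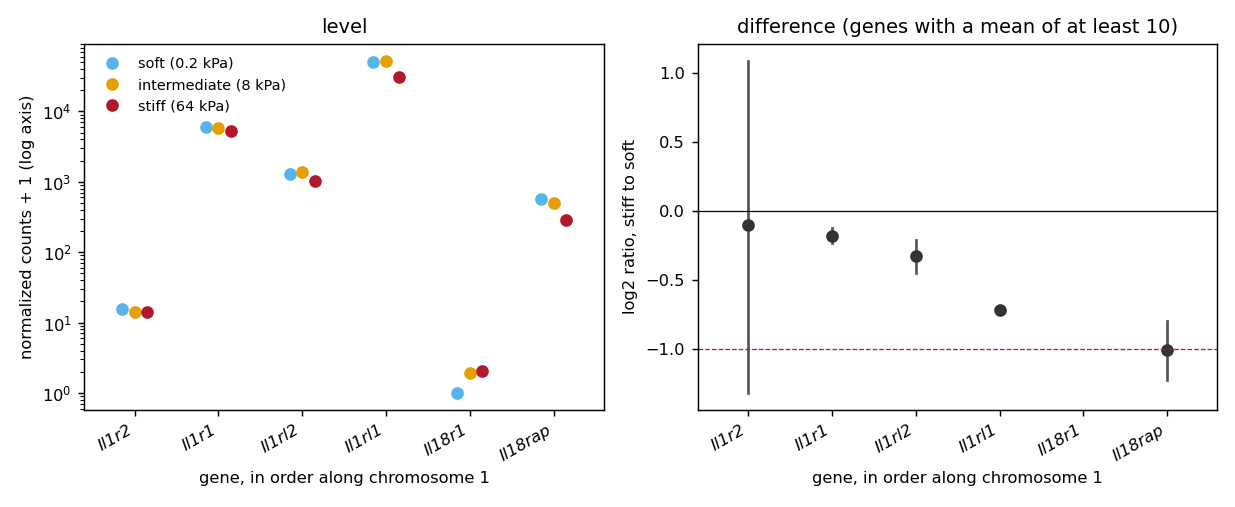
The 6 receptor genes in their order along chromosome 1: normalized counts plus 1 in each library (left, log axis) and the stiff to soft log2 ratio with its counting interval (right, dashed line at -1). The ratios were -0.18 for Il1r1, -0.33 for Il1rl2, -0.71 for Il1rl1 and -1.005 for Il18rap, while the interval of Il1r2 runs from -1.31 to 1.09 and Il18r1, with a mean under 10, is left out on the right.

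The co-receptor gene Il1rap, which both Il1r1 and Il1rl1 need for signalling, had 1620, 1632 and 1549 normalized counts from soft to stiff. Its stiff to soft log2 ratio was -0.06, with an interval from -0.17 to 0.04 that includes 0. Per kilobase of canonical transcript, Il1rl1 stood at 27.3, 28.5 and 17.4 times the level of Il1rap in the same order. The levels of Il1r1 were 2.93, 2.81 and 2.72 times those of Il1rap. By merged exon length the Il1rl1 multiples were 68.7, 71.6 and 43.8. The size of the multiple depends on the length used.

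Among the ligands, Il1a, Il1b and the antagonist Il1rn were each highest in the intermediate library. Il1a had 91.2 normalized counts on the soft plate, 183 on the intermediate and 124 on the stiff one. The intermediate level was 2.00 times the soft one, at a log2 ratio of 0.995 (0.63 to 1.38) that lay just under the call. From intermediate to stiff the ratio was -0.56 (-0.90 to -0.22). Il1b had 135, 178 and 112 normalized counts. Its intermediate to soft ratio was 0.39 (0.07 to 0.73) and its stiff to intermediate ratio -0.67 (-1.03 to -0.32), both beyond counting error. Stiff to soft was -0.27 (-0.66 to 0.10), an interval that includes 0, and -0.13 with the length and GC trend subtracted. Il1a and Il1b lie near each other on the minus strand of chromosome 2, at 129140291 to 129152098 and 129206490 to 129213059. Their exons overlap genes on the other strand, Gm14023 for Il1a, with 8 to 14 reads, and Il1bos for Il1b, with no read.

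Il1rn, which encodes the receptor antagonist, had 5457 normalized counts on the soft plate, 7631 on the intermediate and 6707 on the stiff one. It was lowest on the soft plate. The log2 ratio was 0.48 (0.43 to 0.53) from soft to intermediate and -0.19 (-0.23 to -0.14) from intermediate to stiff, the latter -0.11 with the length and GC trend subtracted. Il1rn lies on the plus strand of chromosome 2 at 24226865 to 24241506, far from Il1a and Il1b. Per kilobase of canonical transcript, the antagonist stood at 17.4, 16.7 and 22.8 times the sum of Il1a and Il1b from soft to stiff. By merged exon length it stood at 12.6, 11.4 and 15.4 times, highest in the stiff library by both lengths. The secreted and intracellular forms of the antagonist were not told apart.

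Il33 was the least abundant of the 10, with 51.3, 42.4 and 45.1 normalized counts from 50, 45 and 44 reads. All 3 of its intervals included 0, and the widest differences they allow for stiff to soft are -0.80 and 0.43 on the log2 scale. No difference in Il33 was detectable at this depth. Other family members were sparse too. Il18, a cytokine released by inflammasomes, had 112, 121 and 96.4 normalized counts, and Il18bp, which captures it, had 49.2, 81.1 and 63.6. Neither was called, and Il36b and Il36rn had no read. Below the minimum mean, Il36g had 25.6, 18.9 and 50.2 normalized counts from soft to stiff. Its log2 ratio was 0.94 (0.25 to 1.73) for stiff to soft and 1.37 (0.64 to 2.24) for stiff to intermediate.

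**Figure D3:**
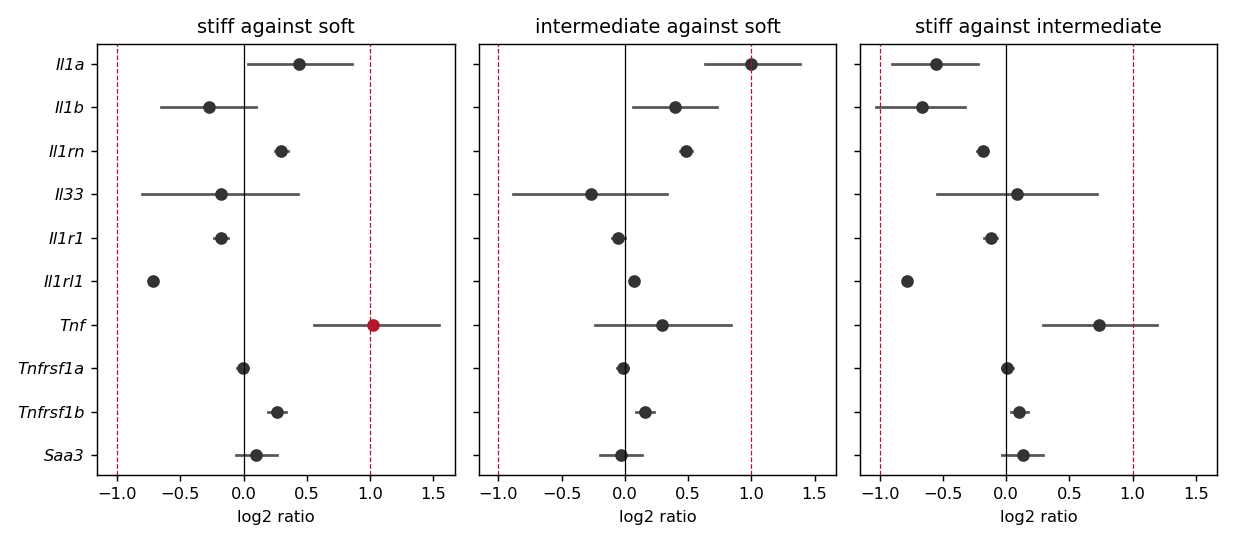
Log2 ratios of the 10 genes for each pair of libraries; points are the ratios after adding 1, lines are exact 95% counting intervals, dashed lines mark a ratio of 1 in either direction. Tnf in stiff against soft, at 1.03, is the point beyond a dashed line, and Il1a in intermediate against soft, at 0.995, sits on it.

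Tnf was the one gene of the 10 that was called. It had 54.3 normalized counts on the soft plate, 66.9 on the intermediate and 112 on the stiff one, from 53, 71 and 109 reads. The order followed stiffness, and most of the difference lay between intermediate and stiff. It rose by 1.03 on the log2 scale (0.55 to 1.54) from soft to stiff, a level 2.06 times as high. Stiff to intermediate was 0.73 (0.30 to 1.19), and intermediate to soft was 0.30 with an interval from -0.23 to 0.84. Of 11873 genes tested, 3.22% were called higher in this comparison, and 1 call among 9 genes is too few to set apart from that share. The call was lost under 3 of 4 other scalings, at 0.94 to 0.97, and at 0.92 with a pseudocount of 10. Tnf lies on chromosome 17 at 35418357 to 35420983, minus strand.

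Macrophages are a main source of TNF, and their markers moved in the same direction. Of the 17 macrophage markers with a mean of at least 50, 13 were called higher in the stiff library than in the soft one and none lower, against 3.22% and 0.387% of all genes, with a median log2 ratio of 1.25. Lyz2, the most abundant, had 18362, 21482 and 39173 normalized counts, Ctss 5035, 6960 and 10627, and Adgre1 2395, 3404 and 5785. Intermediate to soft their median was 0.47 with none called, against 0.168% of all genes. The part of this in the level of Tnf, or of Il1b and Il1rn, which macrophages also make, was not tested. The stiff to intermediate median of the markers was 0.76, with 2 called higher (Mrc1 and Laptm5), against 0.825% of all genes.

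**Figure D4:**
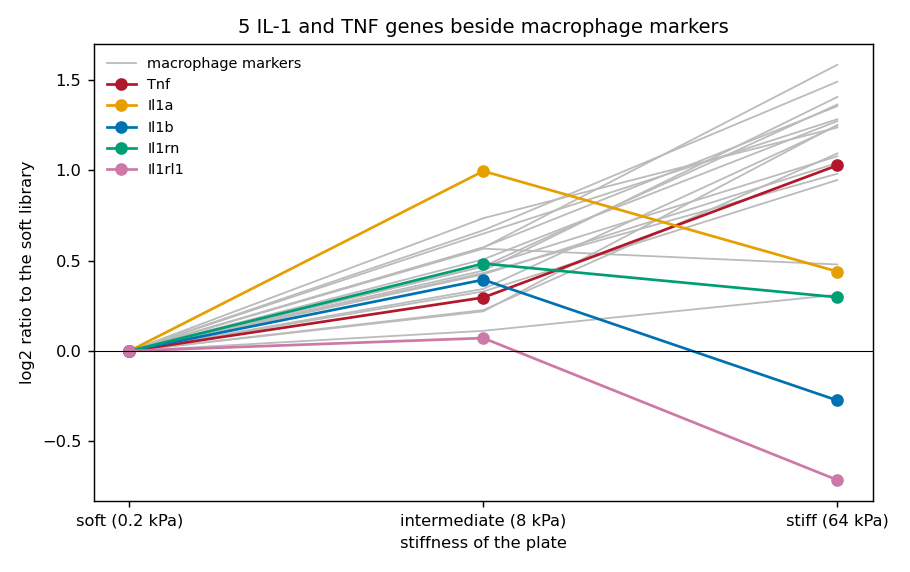
Log2 ratio to the soft library at each stiffness for Tnf, Il1a, Il1b, Il1rn and Il1rl1 (coloured points, 1 library each, joined by lines) and for 17 macrophage markers (grey lines). Tnf ended at 1.03 among the markers, whose median was 1.25, while Il1b ended at -0.27 and Il1rl1 at -0.71.

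The TNF receptors differed little. Tnfrsf1a, the main death domain receptor of TNF, had 8575, 8488 and 8541 normalized counts from soft to stiff. Its 3 log2 ratios were -0.01, -0.01 and 0.01, with intervals that include 0. The stiff to soft ratio was -0.01, and -0.06 to -0.09 under 3 of 4 other scalings. The stiff to intermediate ratio of 0.01 turned to between -0.04 and -0.01 under the same 3. Tnfrsf1b had 3074, 3437 and 3696, in the order of stiffness. Its stiff to soft ratio was 0.27 (0.20 to 0.34), which became 0.16 with the length and GC trend subtracted. Per kilobase of canonical transcript, Tnfrsf1a stood at 6.30, 5.58 and 5.22 times Tnfrsf1b. Tnfrsf1a lies on chromosome 6 and Tnfrsf1b on chromosome 4.

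Saa3, the acute-phase readout, had 599.7 normalized counts on the soft plate, 587 on the intermediate and 644 on the stiff one. Its stiff to soft log2 ratio was 0.10 (-0.06 to 0.27), or 0.24 with the length and GC trend subtracted, and the intervals of all 3 pairs included 0. Saa1 and Saa2, acute-phase relatives whose near-identical sequences make their separate counts uncertain, had means of 4.25 and 5.45 normalized counts.

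Over all 10 genes the median log2 ratio was 0.05 for stiff to soft, which turned to between -0.04 and -0.01 under 3 of 4 other scalings, 0.12 for intermediate to soft and -0.06 for stiff to intermediate. Over the 14291 genes whose mean was 10 or more, the medians were 0.00, 0.01 and 0.01. Of the 9 genes above the minimum mean, 1 was called between stiff and soft, where 3.60% of all genes were called, 3.22% higher and 0.387% lower. None was called between intermediate and soft, where 0.168% of all genes were, 0.160% higher and 0.00842% lower. None was called between stiff and intermediate either, where 1.25% of all genes were, 0.825% higher and 0.421% lower. By counting intervals alone, 4 of the 9 were higher and 2 lower on the stiff than on the soft plate, against 31.3% and 25.9% of all genes. Between intermediate and soft 5 were higher and 1 lower, against 21.8% and 13.5%. Between stiff and intermediate 2 were higher and 5 lower, against 26.3% and 22.0%. These intervals narrow with abundance, and each pair of comparisons shares a library.

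Genes with the nearest pattern over the 3 libraries were taken by distance of the 2 step ratios, among 10622 named genes with a mean of at least 100. For Il1rl1 they were Ifi207, Knstrn and Ccnb2, at distances of 0.03 to 0.06 on the log2 scale. Knstrn, a spindle protein, and Ccnb2, a mitotic cyclin, are genes of cell division. For Il1a they were Coch, Arhgap25 and the chemokine gene Ccl4, at 0.06 to 0.23, for Il1b Slc20a1, Cp and Pyroxd2, at 0.04 to 0.06, and for Il1rn Slfn9, Pkd1 and Ptpn13, at 0.01 to 0.02. Within 0.1 lay 1 gene for Il1a, 4 for Il1b, 15 for Il1rl1 and 32 for Il1rn. The flatter patterns had 708 to 2082 genes as near. The nearest were Sdc2, Arfgap3 and Gtf3c4 for Il1r1, Foxred2, Eif4e and Tasor for Tnfrsf1a, Rbm15b, Dync1li1 and Taf7 for Tnfrsf1b, and Sgta, Tbl2 and Ecd for Saa3. With 3 libraries, such neighbours describe shape only, and for the flatter patterns they are many.

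The rest of the pathway was read from lists. Of 13 genes that carry the IL-1 signal to NF-kappaB none was called in any comparison, where 3.60% (stiff and soft), 0.168% (intermediate and soft) and 1.25% (stiff and intermediate) of all genes were. A count of 0 among so few genes is near those shares. The stiff to soft median was 0.09. Their extremes were Peli1, a ubiquitin ligase, at -0.37 (-0.53 to -0.22), the adaptor gene Myd88 at -0.18, the inhibitory kinase gene Irak3 at 0.22 and Irak4 at 0.27. Of 16 TNF receptor signalling genes with a mean of at least 50 none was called either, with a median of 0.01. The gene left out is Traf1, an adaptor, whose mean of 49.0 lay just under the minimum. It had 26.7, 54.7 and 65.6 normalized counts, a log2 ratio of 1.27 (0.62 to 2.02) for stiff to soft and 1.01 (0.35 to 1.76) for intermediate to soft. Birc2 stood at -0.21, Traf2 at -0.11, Rnf31, part of the linear ubiquitin ligase, at 0.38 and Cflar, an inhibitor of caspase-8, at 0.44 (0.38 to 0.51).

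Among 11 inflammasome and processing genes with a mean of at least 50, 1 was called between stiff and soft, where 3.22% of all genes were called higher and 0.387% lower. Nlrp3, the sensor whose inflammasome matures IL-1 beta, had 157 normalized counts on the soft plate, 218 on the intermediate and 412 on the stiff one. It rose by 1.39 on the log2 scale (1.12 to 1.67), and macrophage markers, with a median of 1.25, moved with it; their part was not tested. Gsdmd, the pore protein through which IL-1 beta leaves cells, had 1540, 1614 and 1122, a stiff to soft ratio of -0.46 (-0.57 to -0.34). Casp4, a caspase that cuts it, stood at -0.42. Capn2, a subunit of the calpain proteases that can cut the IL-1 alpha precursor, was at 0.83 (0.78 to 0.88).

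Of 6 other TNF family ligands with a mean of at least 50, 2 were called higher on the stiff plate, against 3.22% of all genes. Tnfsf15 (TL1A) had 49.2, 43.4 and 119 normalized counts and rose by 1.26 (0.78 to 1.79). It was also the 1 ligand gene of the 6 called higher between intermediate and stiff, at 1.44 (0.95 to 1.98), where 0.825% of all genes were. Tnfsf14 (LIGHT) had 43.1, 46.2 and 90.2, a stiff to soft ratio of 1.05 (0.52 to 1.63) that was just under 1 under 3 of 4 other scalings. Macrophage markers were higher on the stiff than on the soft plate as well, with a median of 1.25. From soft to intermediate their median was 0.47, where Tnfsf15 stood at -0.18 (-0.80 to 0.43) and Tnfsf14 at 0.10 (-0.52 to 0.73). The part of macrophages was not tested. Tnfsf11, the osteoclast factor RANKL, stood at -0.27 (-0.43 to -0.11), and Eda at -0.09. None of 14 other TNF receptor family genes with a mean of at least 50 was called in any comparison. Of all genes, 3.60% (stiff and soft), 0.168% (intermediate and soft) and 1.25% (stiff and intermediate) were. A count of 0 among so few genes is near those shares. Tnfrsf11a, the receptor of RANKL, was highest at 0.86 (0.40 to 1.36), followed by the TRAIL receptor gene Tnfrsf10b at 0.61. Below the minimum mean, Tnfsf4 (OX40L) had 14.4, 17.9 and 71.8 normalized counts and Tnfrsf13b (TACI) 18.5, 34.9 and 61.5, with stiff to soft ratios of 2.25 (1.48 to 3.27) and 1.68 (0.96 to 2.59). Of the 14 receptor genes, Tnfrsf9 was lowest at -0.39 and Tnfrsf11b, the decoy of RANKL, stood at -0.31.

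Downstream response genes were counted last. Of 32 genes known to be induced by IL-1 or TNF, 28 had a mean of at least 50, and 2 were called higher and 2 lower between stiff and soft, against 3.22% higher and 0.387% lower among all genes. The matrix protease genes fell: Mmp3 had 43770, 33751 and 19885 normalized counts, a ratio of -1.14 (-1.16 to -1.11), and Mmp13 had 18731, 20166 and 9233, a ratio of -1.02 (-1.06 to -0.98). After subtraction of the length and GC trend Mmp3 stood at -1.02 and Mmp13 at -0.87, under the call. Mmp13 was also called lower between intermediate and stiff, at -1.13 (-1.16 to -1.09), and stayed past the call at -1.05 with the trend subtracted. Ccl20, a chemokine gene, rose by 1.20 (0.69 to 1.78), with 43.1 normalized counts on the soft plate, 95.2 on the intermediate and 100.5 on the stiff one. It was the 1 response gene called between intermediate and soft, at 1.13 (0.61 to 1.70), where 0.160% of all genes were called higher. Complement gene C3 had 520, 737 and 1061, a ratio of 1.03 that was under 1 in 3 of 4 other scalings and 0.81 with that trend subtracted. Here too macrophage markers were higher on the stiff plate, at the median of 1.25. By steps, intermediate to soft and then stiff to intermediate, their medians were 0.47 and 0.76. The same steps were 1.13 and 0.08 for Ccl20 and 0.50 and 0.53 for C3. The part of macrophages in Ccl20 and C3 was not tested.

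The response genes most often had their highest value in the intermediate library. This held for 15 of the 28, against 23.2% of all genes, and for 13 to 15 under the 4 other scalings. Their median log2 ratio was 0.21 for intermediate to soft and -0.25 for stiff to intermediate, beside 0.01 and 0.01 over all genes with a mean of at least 50. Lif, a cytokine gene of the IL-6 family, had 1714, 2597 and 1831 normalized counts, and the neutrophil chemokine gene Cxcl5 had 5587, 7626 and 5936. Il6 had 946, 1109 and 758. Steap4, a metal reductase gene, had 195, 284 and 138 and was called lower between intermediate and stiff, at -1.03 (-1.34 to -0.74). With Mmp13 it made 2 of the 28 genes called lower there, against 0.421% of all genes, and none was called higher. Of the 10 genes, 4 were highest in the intermediate library (Il1a, Il1b, Il1rn and Il1rl1), against 23.2% of all genes. Tnf, Tnfrsf1b and Saa3 were highest in the stiff one, against 42.2%, and Il33, Il1r1 and Tnfrsf1a in the soft one, against 34.6%. All intervals of Saa3, Il33 and Tnfrsf1a included 0, and Il1rl1 stood only 0.07 above its soft level on the log2 scale.

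**Figure D5:**
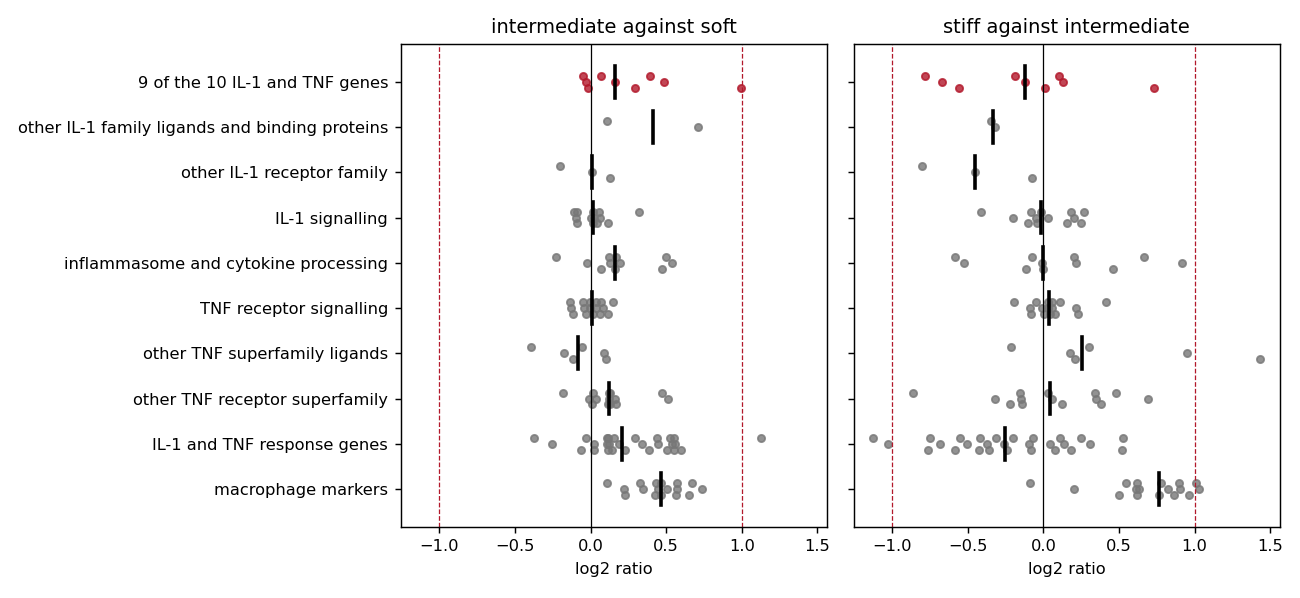
Log2 ratios of intermediate to soft (left) and stiff to intermediate (right) for genes with a mean of at least 50; each point is a gene, black bars are medians, dashed lines mark a ratio of 1 in either direction. The response genes have medians of 0.21 and -0.25, and the macrophage markers of 0.47 and 0.76.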

How the data were processed

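RNA of 3 cultures, 1 per stiffness, was made into libraries with a stranded mRNA kit, per the labels' protocols. The submitters' processing notes name bcl2fastq 2.20.0, STAR 2.7.9a, Subread 2.0.1 with featureCounts, DESeq2 1.34.0 and GRCm39; the annotation and strand setting are not given in the sources used here. The signal deposited by the authors is a count per gene over the size factor of its library. The 3 deposited files were identical, and 33275 of 56833 genes had no read. All values (100%, tolerance 0.01 reads) were whole multiples of what 1 read was worth in their library, which gave the reads. A count test needs replicates and was not run.

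Ratios used a pseudocount of 1, a log2 ratio of 1 and a minimum mean of 50 (10 for medians). Clopper-Pearson and Poisson intervals (95%) cover counting error only: reads copied by PCR without molecular identifiers are no independent molecules; a count of 0 allows 3 reads. The lists held 8 pathway and 8 cell type groups. Members and lists were chosen with earlier results of these data known. Named genes were the 10 members, genes of each pathway list past the fold and its 2 highest and 2 lowest stiff to soft ratios, the 3 most abundant markers and markers without a read of cell type lists, and the 3 nearest patterns of each member with a mean of at least 100; Il6, Lif, Cxcl5, Efhd1, Cd34, Gm14023, Il1bos, Il18r1, Il1r2, Il36b, Il36rn, Saa1, Saa2, Traf1, Tnfsf4 and Tnfrsf13b were named after their values were seen, and 1 marker is not reported here. Lengths and positions are from GENCODE vM39, matched by symbol; promoter windows are from RefSeq, with all 10 members matched. The length and GC trend is the median of the 200 nearest genes and was added after seeing the data. Scripts were tested on simulated data. Software was R 4.3.3 with edgeR 4.0.16 (for TMM factors) and Python 3.11.15 with matplotlib 3.10.9, scikit-learn 1.9.0, scipy 1.17.1, pandas 2.3.3 and numpy 2.4.6.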

Additional observations from a re-analysis of the deposited data

How the results depend on the processing

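No paired analysis was possible because each level had 1 library, and leaving out a replicate and a count test were not run for the same reason. The number of the 10 genes called between stiff and soft was 1 and became 0 with a pseudocount of 10, under 3 of 4 scalings (total reads, upper quartile, and without mitochondrial, ribosomal protein and the 10 most abundant genes), with a minimum mean of 200, at a log2 ratio of 2 and when the whole counting interval had to pass 1. At a log2 ratio of 0.5 it was 2 (Il1rl1 and Tnf). Between intermediate and soft it was 0 and became 1 (Il1a) with a pseudocount of 0.1, at a log2 ratio of 0.5 and with the length and GC trend subtracted. Between stiff and intermediate it was 0 and became 4 (Il1a, Il1b, Il1rl1, Tnf) at a log2 ratio of 0.5. The thresholds give these changes by construction; for the trend the cause was not tested. The medians over the 10 genes ran from -0.04 to 0.06 for stiff to soft, from 0.08 to 0.12 for intermediate to soft and from -0.11 to -0.06 for stiff to intermediate. With a minimum mean of 200, which leaves 6 genes, the intermediate to soft median was 0.03. Of 30 ratios of single genes under 7 alternatives, 20 stayed inside their counting intervals under all, 10 left them under at least 1, and 2 changed sign: Tnfrsf1a in stiff against intermediate and Saa3 in intermediate against soft. At 44 to 50 reads, depth limits any statement on Il33.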
